A study of Mus musculus with 9 samples.

Results

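Alternative pathway components and complement regulators were read in choroid plexus of aged mice with and without apolipoprotein E (ApoE). The set was fixed by gene symbol: C3, Cfb, Cfd, Cfp, Cfi, Cd55, Cd59a, Cd46 and Masp1, taking every probe set that the platform annotation gives to exactly 1 of these symbols. It found 15 probe sets of 7 genes, out of 45101 probe sets on the array. The annotation used here listed no probe set with C3 or Cfd as its only symbol, so C3 itself, the central component, and the protease factor D were not analysed here. A probe set listed for both Cd55 and Cd55b fell outside the rule and was called absent on all 9 arrays.

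Complement is a cascade of plasma and tissue proteins that marks surfaces for uptake or lysis. In the alternative pathway, factor B (Cfb) binds C3b and is cut by factor D to form the C3 convertase, which properdin (Cfp) stabilises. Host cells are shielded by factor I (Cfi), a fluid-phase protease that inactivates C3b with the help of cofactors such as CD46, by CD55, which speeds the decay of the convertases, and by CD59, which blocks assembly of the membrane attack complex. MASP-1 and MASP-3, both encoded by Masp1, are proteases of the lectin pathway, and MASP-3 also activates pro-factor D. In mice Cd46 is known mainly from testis, and much of the corresponding role on somatic cells is taken by Crry, encoded by Cr1l.

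The study compared the choroid plexus, the epithelium and stroma within the brain ventricles that secretes cerebrospinal fluid, taken from male mice labelled C57BL that had reached 78 weeks on a normal chow diet. Laser-captured samples of fresh-frozen tissue were hybridised 1 to an array, 4 samples being apoE-/- and 5 wild-type. Since the labels do not name the animals behind the captures, p-values here speak only of sample-to-sample spread, part of which could be technical. The number of arrays limits the precision. In bulk tissue of this kind, fewer cells of a type and less RNA per cell cannot be told apart.

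The labels and the tissue were checked first. The Apoe probe set read 12.2 to 53.8 and was called absent on all 4 apoE-/- arrays, against 18252 to 23953.1 and present on all 5 wild-type arrays. Of 12 choroid plexus epithelium markers 10 had a probe set, and all 10, Ttr and Folr1 among them, were called present on all 9 arrays. The share of present calls per array ran from 44.0% to 49.1%. Of 21478 probe sets called present on at least 4 arrays and tested with limma, 144 (0.67%) were higher and 412 (1.92%) lower in apoE-/- (Benjamini-Hochberg adjusted p under 0.05). These counts depended on single arrays. Dropping apoE-/- replicate 1, 2, 3 or 4 gave 89, 65, 56 or 236 higher, and dropping wild-type replicate 2 or 4 gave 89 or 72. Fewer were lower when apoE-/- replicate 3 (207) or wild-type replicate 4 (213) was dropped.

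No alternative pathway or regulator probe set passed the test between the genotypes. Of the 15, 8 passed the filter, at least 4 present calls over the 9 arrays. Among them 7 probe sets of 4 genes (1 each of Cfp and Cfi, all 3 of Cd55 and both of Cd59a) were called present on all 9 arrays, while the Cd46 probe set passed only through wild-type calls and is set apart here. Of the 7, 0 were called by limma, where 2.59% of all tested probe sets were. At an unadjusted p under 0.05 the count was also 0 of 7, against 16.5% of all tested probe sets. Log2 differences of the 7, apoE-/- minus wild-type, ran from -0.21 to 0.22, with 4 above and 3 below 0 and a median of 0.035, beside a median of 0.0014 over all tested probe sets. Groups overlapped for all 7, while 6.89% of all tested probe sets did not overlap. The groups also overlapped for Cd46 and for the probe sets that were not tested. Intervals (95%) lay wholly inside a 1.5-fold change in either direction for 6 of the 7, and for 64.4% of all tested probe sets. The exception was 1 probe set of Cd55, for which a change of that size was within the interval.

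**Figure D1:**
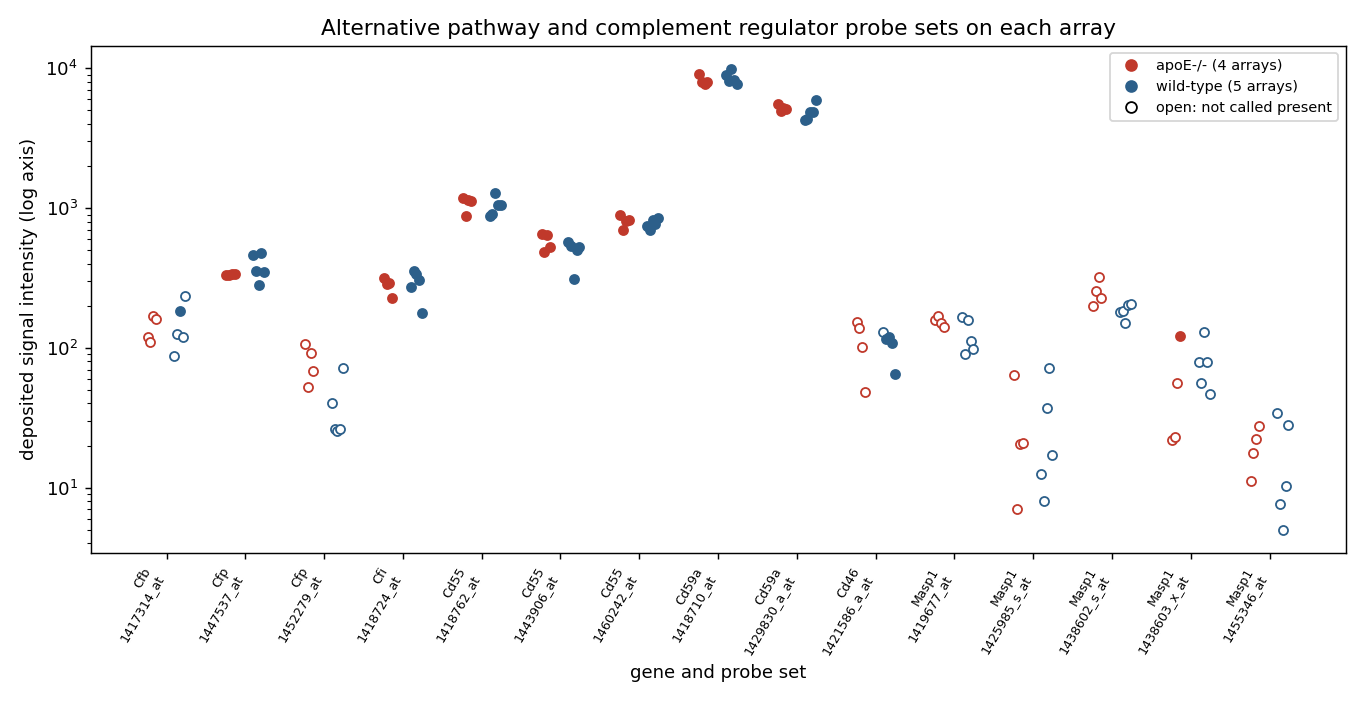
Deposited signal intensity on a log axis for each of the 15 probe sets of alternative pathway components and complement regulators, with 1 point per array, apoE-/- in red and wild-type in blue. Filled points were called present and open points were not; the groups overlap for every probe set, and heights of different probe sets cannot be compared.

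Of the proteins that form or stabilise the alternative pathway convertase, only factor B and properdin were read, since C3 and factor D were not analysed. Factor B was called present on 1 array alone, and properdin did not pass the test by its detected probe set. Factor B was read by 1 probe set, 1417314_at. The apoE-/- arrays, replicates 1 to 4, gave it deposited signals of 120.3, 109.4, 169.5 and 161.0, and the wild-type arrays, replicates 1 to 5, gave 88.0, 125.4, 184.9, 119.9 and 233.3. Only wild-type replicate 3 was called present, and the highest signal, of wild-type replicate 5, was called absent. Cfb therefore had a measured level on 1 array, was not tested, and could have differed without being seen.

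Properdin, made mainly by neutrophils, monocytes and macrophages, was read by probe sets that behaved differently. Probe set 1447537_at was called present on all 9 arrays, with signals of 334.4, 331.6, 337.2 and 336.9 in apoE-/- replicates 1 to 4. In wild-type replicates 1 to 5 it read 463.3, 352.3, 283.9, 478.4 and 349.9. The apoE-/- arrays thus lay close together, in the lower part of a wild-type range that reached both above and below them. The standard deviation of normalized log2 signal was 0.05 (n = 4) in apoE-/- and 0.31 (n = 5) in wild-type, and this difference in spread was not tested. The log2 difference was -0.21 ± 0.16 (SE, 95% interval -0.55 to 0.12, limma adjusted p = 0.54). It was -0.12 without wild-type replicate 4, -0.14 without wild-type replicate 1 and -0.31 without wild-type replicate 3.

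The other Cfp probe set, 1452279_at, read 105.8, 52.2, 91.4 and 68.8 in apoE-/- and 40.3, 26.1, 25.3, 26.1 and 71.8 in wild-type. It was called absent on all 9 arrays, so neither group had a measured level. Its apoE-/- values were the higher ones except that wild-type replicate 5 lay above apoE-/- replicates 2 and 4. Without the filter on present calls, 0.731% of all probe sets were called. In that setting 1452279_at had an unadjusted p of 0.0258 and an adjusted p of 0.325 by limma. No fold is given because both groups were below detection.

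Macrophages can make properdin. Of 14 macrophage and microglia markers with a probe set, 9 were tested and 3 were called present on no array. All 9 tested read above wild-type, with 2 called. Lyz2, a lysozyme, rose 1.76-fold (limma adjusted p = 0.0154) and Ctss, a lysosomal protease, 1.54-fold (limma adjusted p = 0.0179). Over all tested genes 53.4% read above 0 and 1.66% were called. The summed signal of those 9 ranged from 11574 to 17030 in apoE-/- and from 9022 to 13722 in wild-type. Cfp, at -0.21, was not called alongside them, and the part of these cells in its signal was not tested. Of 8 neutrophil and blood markers with a probe set, 5 were called present on no array. The 2 tested, S100a8 at -0.86 and Ngp at -0.15, both read below 0, and 0 were called. Their summed signal ranged from 220 to 341 in apoE-/- and from 290 to 533 in wild-type. Their part in the Cfp signal was not tested either.

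The lectin pathway protease gene Masp1 was at the edge of detection or below it. Of its 5 probe sets, 4 were called absent on all 9 arrays. The remaining one, 1438603_x_at, was called present on apoE-/- replicate 4 alone, at 121.3, although wild-type replicate 3, at 129.9, was called absent. None of the 5 was tested. Probe set 1438602_s_at read 197.8, 253.2, 322.5 and 226.2 in apoE-/- and 180.8, 183.2, 149.8, 203.0 and 205.7 in wild-type. Of the apoE-/- arrays only replicate 1 fell inside the wild-type range. Without the filter on present calls the adjusted p of 1438602_s_at was 0.418 by limma. A filter on mean signal that ignores the detection calls, in which 2.24% of probe sets were called, gave 0.285 by limma. That alternative was chosen after seeing the data. Signals of the other 4 probe sets ranged from 5.0 to 168.2 over both groups.

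Factor I, the serum protease that inactivates C3b, was detected on all 9 arrays and did not pass the test. Probe set 1418724_at read 315.7, 284.3, 289.1 and 228.9 in apoE-/- replicates 1 to 4 and 272.5, 355.7, 335.2, 304.5 and 178.7 in wild-type replicates 1 to 5. The apoE-/- values all lay within the wild-type range, whose lowest array was replicate 5. The log2 difference was -0.07 ± 0.19 (SE, 95% interval -0.48 to 0.33, adjusted p = 0.883). Leaving out wild-type replicate 5 moved it to -0.23, with an adjusted p of 0.476.

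The membrane regulators differed in how clearly they were detected. Cd55 and Cd59a, whose products are held in the membrane by a glycosylphosphatidylinositol anchor, were called present by every probe set on every array, while Cd46, whose product spans the membrane, was called present on 4 of 9. Their promoters are shown as a description of these genes, and any part of them in the detection calls was not tested. Each is the stretch from 250 bases before to 50 after the annotated start, from RefSeq on GRCm38.p6, written 5′ to 3′ on the gene's strand, with matches to a GC box (GGGCGG) or a CCAAT box (CCAAT) on either strand in capitals. Of the 7 genes with a probe set, 4 were matched in that promoter table. Cd55 is at chr1:130462695-130462994, minus strand, Cd46 at chr1:195092199-195092498, minus strand, and Cd59a at chr2:104095551-104095850, plus strand.
Cd55: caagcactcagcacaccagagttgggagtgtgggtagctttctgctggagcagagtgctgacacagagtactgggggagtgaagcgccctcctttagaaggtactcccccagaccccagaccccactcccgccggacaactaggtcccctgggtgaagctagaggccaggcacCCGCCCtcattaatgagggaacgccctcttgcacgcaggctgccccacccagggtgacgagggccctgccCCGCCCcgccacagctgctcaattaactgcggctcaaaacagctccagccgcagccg
Cd46: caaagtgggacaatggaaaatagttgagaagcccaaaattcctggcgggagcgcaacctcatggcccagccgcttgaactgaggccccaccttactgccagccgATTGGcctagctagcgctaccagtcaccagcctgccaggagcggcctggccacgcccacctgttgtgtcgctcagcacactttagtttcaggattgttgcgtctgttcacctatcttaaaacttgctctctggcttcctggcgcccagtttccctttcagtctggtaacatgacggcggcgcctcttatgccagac
Cd59a: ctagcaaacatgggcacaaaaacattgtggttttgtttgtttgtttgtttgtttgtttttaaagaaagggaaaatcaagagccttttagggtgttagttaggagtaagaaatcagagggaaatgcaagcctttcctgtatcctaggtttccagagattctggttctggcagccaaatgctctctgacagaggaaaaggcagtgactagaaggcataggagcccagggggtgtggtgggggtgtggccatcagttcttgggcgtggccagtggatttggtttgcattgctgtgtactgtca

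The Cd55 window held 2 GC box matches and no CCAAT match, the Cd46 window 1 CCAAT match on the opposite strand and no GC box, and the Cd59a window neither. GGGCGG was found in 35.7% and CCAAT in 37.4% of 32851 mouse promoters of the same length. TATAAA was searched as well and was in none of the 3 windows, against 13.6% of all promoters. The motifs did not overlap. The dinucleotide CG occurred 12 times in the Cd55 window, 13 times in that of Cd46 and 1 time in that of Cd59a, with a median of 7 over all promoters. These are descriptions of the letters only, and the expression values do not bear on any factor that binds them.

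Cd55, decay-accelerating factor, was read by 3 probe sets, none of which was called. Probe set 1418762_at read 1177.6, 882.6, 1139.4 and 1126.4 in apoE-/- replicates 1 to 4 and 872.2, 911.3, 1278.4, 1047.6 and 1050.1 in wild-type replicates 1 to 5. All apoE-/- values lay inside the wild-type range, and the log2 difference was 0.08 ± 0.13 (SE, 95% interval -0.20 to 0.35, adjusted p = 0.814). Probe set 1460242_at read 892.4, 696.8, 808.9 and 818.0 in apoE-/- and 748.8, 697.6, 824.4, 765.4 and 848.2 in wild-type. The apoE-/- group held both the highest and the lowest of its 9 signals, and the difference was 0.03 ± 0.11 (SE, 95% interval -0.20 to 0.27, adjusted p = 0.908).

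The third Cd55 probe set, 1443906_at, gave the largest difference of the 7 probe sets called present on all arrays. It read 657.3, 488.6, 639.9 and 528.6 in apoE-/- and 576.9, 535.1, 313.5, 504.1 and 529.5 in wild-type. Wild-type replicate 3 was the lowest array here and the highest array for 1418762_at, so the probe sets of this gene ordered that sample in opposite ways. The log2 difference was 0.22 ± 0.17 (SE, 95% interval -0.15 to 0.59, adjusted p = 0.556), and it was 0.07 (adjusted p = 0.819) without wild-type replicate 3.

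Cd59a, whose product blocks the membrane attack complex, was read by 2 probe sets with narrow spread. Probe set 1418710_at read 9130.1, 7986.8, 7781.2 and 7996.7 in apoE-/- and 8899.9, 8185.1, 9907.7, 8301.6 and 7674.9 in wild-type. The apoE-/- values again lay inside the wild-type range. Its difference was -0.03 ± 0.07 (SE), and the 95% interval of the fold, 0.885 to 1.09, was the narrowest among those 7 (adjusted p = 0.88). Probe set 1429830_a_at read 5531.2, 4932.1, 5204.3 and 5136.1 in apoE-/- and 4252.4, 4349.7, 4905.6, 4879.9 and 5976.2 in wild-type. Here each apoE-/- value was above wild-type replicates 1 to 4 and below wild-type replicate 5, which was the highest array. The difference was 0.11 ± 0.10 (SE, 95% interval -0.11 to 0.33, adjusted p = 0.631). Without wild-type replicate 5 it was 0.20, with an adjusted p of 0.216, the smallest that any tested probe set of these genes reached in any of the alternatives.

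Cd46, a cofactor for cleavage of C3b and C4b, was read by 1 probe set, 1421586_a_at, whose detection calls split by genotype while its signal did not. It read 152.0, 137.9, 101.8 and 48.4 in apoE-/- replicates 1 to 4, all called absent. In wild-type replicates 1 to 5 it read 129.7, 116.5, 119.0, 108.6 and 64.9, and replicates 2 to 5 were called present. The highest and the lowest of the 9 signals were both apoE-/- arrays, and wild-type replicate 5 was called present at a signal below that of 3 apoE-/- arrays called absent. With no apoE-/- array called present, its apoE-/- level is known only as a bound. Mean normalized log2 signal was 6.62 in apoE-/- and 6.73 in wild-type, while mean deposited signal was 110 in apoE-/- and 108 in wild-type. The log2 difference of -0.12 ± 0.32 (SE) did not pass (limma adjusted p = 0.889). With 1 array left out it ranged from -0.34 to 0.21, so neither genotype can be called the higher for Cd46. A split of 0 apoE-/- and at least 4 wild-type present calls was found for 172 probe sets, 0.801% of those tested.

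**Figure D2:**
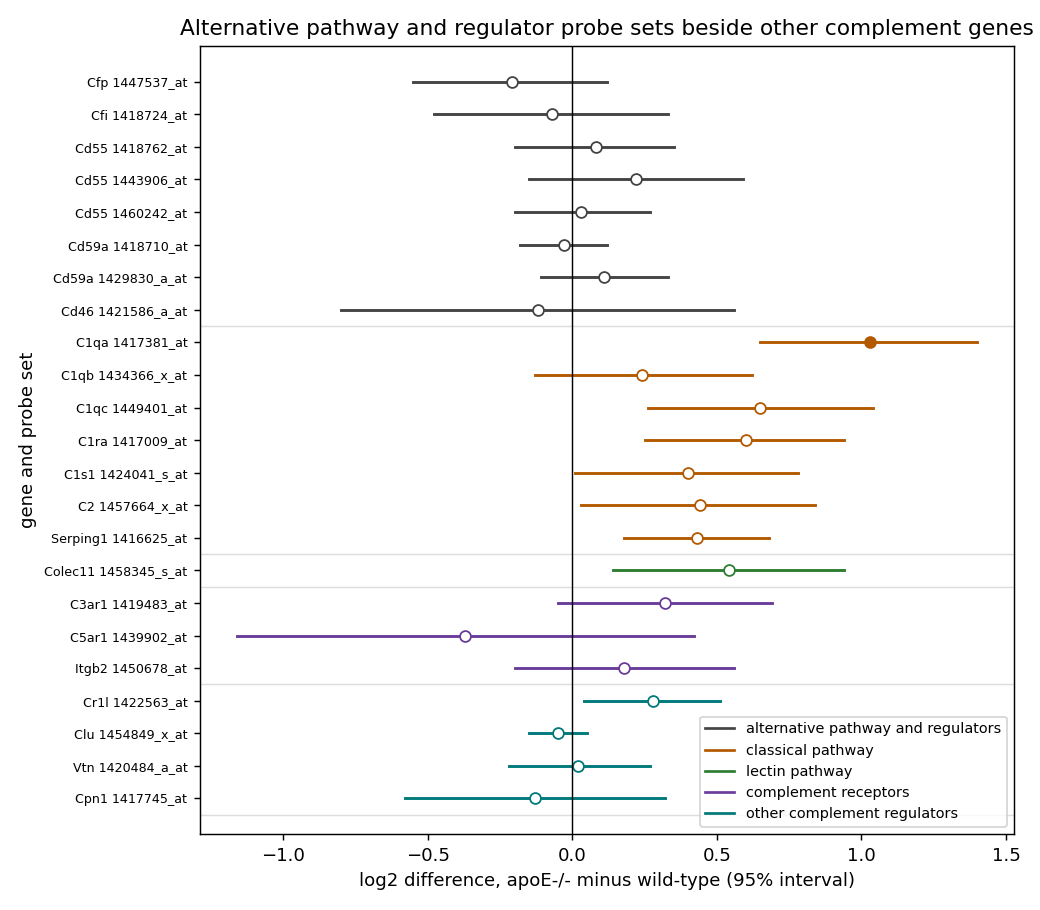
Log2 difference (apoE-/- minus wild-type) with its 95% interval for the 8 tested probe sets of alternative pathway components and regulators and, below them, for the brightest tested probe set of each other complement gene; filled points passed an adjusted p of 0.05 (limma). The top intervals all include 0, that of Cd46 resting on an apoE-/- level known only as a bound, while C1qa, at 1.03, is the only filled point.

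For the rest of the complement system, each gene was represented by its brightest tested probe set. Of 44 other complement genes 36 had a probe set of their own and 15 were tested. Of these 15, 1 rose and 0 fell, 12 read above 0 and the median was 0.32. Over all 11089 tested genes 1.66% were called, 53.4% read above 0 and the median was 0.02. Read in the same way, 1 of 5 tested genes of the alternative pathway components and regulators was above 0, with a median of -0.07 and 0 called. Those 5 include Cd46, whose apoE-/- level is only a bound.

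In the classical pathway, C1q recognises bound antibody or other ligands, C1r activates C1s, and C1s cuts C4 and C2. All 7 tested read above 0, with a median of 0.44. C1qa, a chain of C1q, rose, with a log2 difference of 1.03 ± 0.18 (SE) and an adjusted p of 0.0078, from signals of 528.3 to 752.3 in wild-type to 810.2 to 1529.1 in apoE-/-, without overlap. C1qb did not pass by its brightest probe set (0.24, limma adjusted p = 0.523) or by 1437726_x_at (0.24, limma adjusted p = 0.627). Its remaining probe set, 1417063_at, read 0.78 and passed (limma adjusted p = 0.00633). C1qc at 0.65 (adjusted p = 0.0801), C1ra at 0.60 (adjusted p = 0.0677) and the C1 inhibitor gene Serping1 at 0.43 (adjusted p = 0.0707) did not pass. Markers of other cells stood beside these values as follows. The macrophage and microglia markers that were tested, 9 of 9 above 0, had a median of 0.43. Of the fibroblast and stroma markers 7 of 9 read above 0, with a median of 0.18 and summed signals of 37499 to 44615 in apoE-/- and 33740 to 38138 in wild-type, and Mgp, a matrix protein that inhibits calcification, rose 1.29-fold (adjusted p = 0.0247). Of the neuronal markers 3 of 8 read above 0, with a median of -0.23, sums of 1830 to 2271 in apoE-/- and 1985 to 2724 in wild-type, and 0 called. Both tested myelin markers read below 0, with a median of -0.41, sums of 1955 to 3634 in apoE-/- and 2081 to 8388 in wild-type, and 0 called. Astrocyte markers read above 0 for 4 of 5 (median 0.19), endothelial markers for 7 of 9 (median 0.16) and ependymal markers for 6 of 6 (median 0.15). Of these 3 lists 0 markers were called. Epithelial markers read above 0 for 6 of 10, with a median of 0.01 and 0 called. The part of any of these cell types in the classical pathway values was not tested.

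Of the lectin and terminal pathways few genes were measurable. In the lectin pathway 1 of 7 genes was tested, Colec11, a pattern-recognition collectin, at 0.54 (adjusted p = 0.153). In the terminal pathway, whose proteins form the membrane attack complex that CD59 blocks, 6 of 7 genes had a probe set and all 6 were called present on no array. Among receptors for C3 and C5 fragments, the C3a receptor gene C3ar1 read 0.32 (adjusted p = 0.385), the integrin subunit Itgb2 0.18 (adjusted p = 0.654) and the C5a receptor gene C5ar1 -0.37 (adjusted p = 0.663). A dimmer C3ar1 probe set, 1442082_at, read 0.63 and did not pass either (limma adjusted p = 0.195). Of 4 other regulators tested, 0 were called by limma and 1 had an unadjusted p under 0.05. That was Cr1l, the rodent regulator Crry, which read 0.28 ± 0.11 (SE, 95% interval 0.04 to 0.51, adjusted p = 0.218). A dimmer Cr1l probe set, 1438920_x_at, read 0.14 (limma adjusted p = 0.865). Cpn1, a carboxypeptidase that inactivates anaphylatoxins, read -0.13 (adjusted p = 0.812), vitronectin, Vtn, 0.02 (adjusted p = 0.938) and clusterin, Clu, -0.05 (adjusted p = 0.616), which was 0.04 to 0.08 under other scalings.

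**Figure D3:**
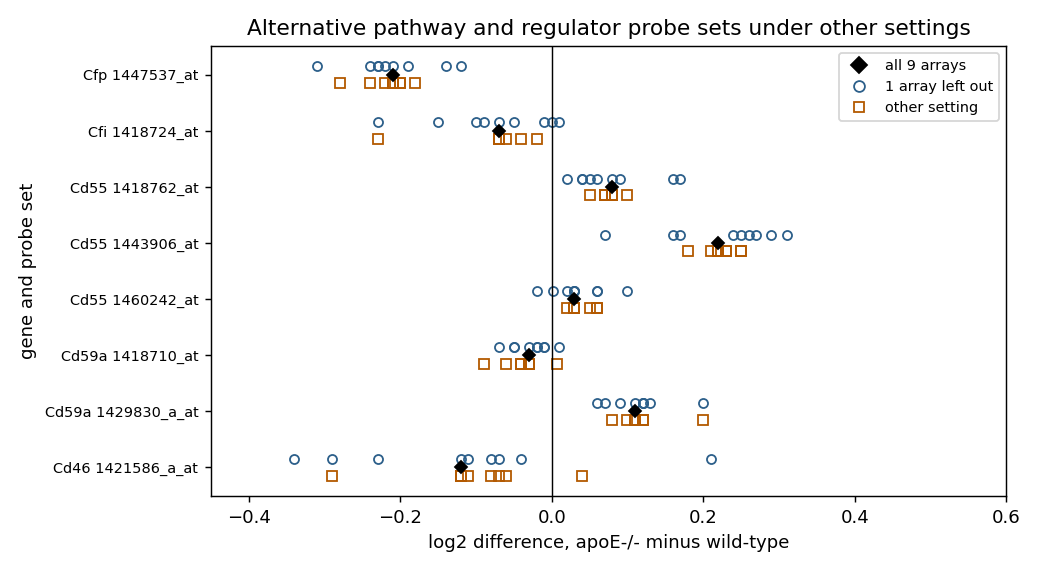
Log2 difference (apoE-/- minus wild-type) of each of the 8 tested probe sets with all 9 arrays (black diamonds), with 1 array left out (blue circles) and under other processing settings (orange squares). All values lie between -0.34 and 0.31, the lowest being of Cd46, whose apoE-/- level is only a bound, and none passed an adjusted p of 0.05.

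Under every alternative run, 12 settings and 9 with 1 array left out, 0 of the tested probe sets of these genes were called. The values for Cfp and for Cd59a 1429830_a_at kept their direction throughout, below and above 0, as did those of Cd55 1418762_at and 1443906_at above 0. Those of Cfi, Cd46, Cd55 1460242_at and Cd59a 1418710_at crossed 0 in 1 or 2 settings each.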

How the data were processed

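Each of 9 arrays had a deposited linear signal intensity per probe set, 45101 in number, with a call of present, marginal or absent. Per the submitters' processing notes the authors used GCOS 1.4; how background was removed and probes were summarised is not given in the sources used here. Arrays had been scaled, since each had a mean of 500.0 once the top and bottom 2% were trimmed. All 405909 intensities equalled those of the series matrix. The 9 columns of detection p were left out. Gene symbols came from the platform annotation (34958 probe sets with 1 symbol, 932 with several, 9211 not listed), updated by gene ID through a RefSeq table of GRCm38.p6 (34754 matched).

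Intensities were taken to log2 and quantile normalized, since array medians ranged over 0.214, above a limit of 0.1. After removal of 64 controls, the 21478 probe sets with at least 4 present calls were tested with limma 3.58.1 in R 4.3.3 (mean-variance trend, genotype only, two-sided, Benjamini-Hochberg over all 21478, threshold 0.05). Probe sets were not averaged; other genes were read by their brightest tested probe set. The named genes were all members, then, of each list of other complement genes or cell markers, up to 4 with the smallest p and any that passed. The rule's search for genes of like profile is not reported, since it returned genes for Cd46 alone, whose apoE-/- level is a bound. The members and lists were chosen with earlier results of these data known. The limma step was tested on simulated data. Alternatives were other scalings, filters, an offset of 32, variance priors, array weights, a replicate block and leaving out each array.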

Additional observations from a re-analysis of the deposited data

Results flagged for a closer look

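Of 30 groups of normalized values (15 probe sets in 2 genotypes), 3 held an array far from the others of its group by Dixon's test at its 95% critical value, and chance flags about 1 in 20 groups. For Cd55 1443906_at the lowest wild-type array, replicate 3, lay at a log2 signal of 8.32 against 9.0 for the nearest array, a gap of 0.787 of the group's range. For Cd55 1418762_at the lowest apoE-/- array, replicate 2, lay at 9.8 against 10.13, a gap of 0.847 of the range. For Cd59a 1418710_at the highest apoE-/- array, replicate 1, lay at 13.13 against 12.99, a gap of 0.888 of the range. None of the 3 probe sets was called with all arrays or without the array named.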

How the results depend on the processing

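No probe set of the alternative pathway components and regulators was called under any alternative, and the 166 values had adjusted p from 0.216 upward. With array weights the value of Cd59a 1418710_at turned to 0.0065 and that of Cd46 to 0.04, and Cpn1 to 0.0059. With 1 array left out values ranged from -0.34 to 0.21 for Cd46, -0.23 to 0.01 for Cfi, -0.02 to 0.10 for Cd55 1460242_at and -0.07 to 0.01 for Cd59a 1418710_at, so each crossed 0. Clu read 0.06 without normalization between arrays, 0.04 with scaling to the 75th percentile and 0.08 with cyclic loess, and Vtn -0.01 with scaling to the 75th percentile; Cpn1 and Vtn also crossed 0 with 1 array left out (-0.33 to 0.04, and -0.04 to 0.10). Over all probe sets the numbers higher and lower were 81 and 248 with no filter, 57 and 252 without the mean-variance trend and 372 and 706 with array weights, and ranged from 56 to 236 and from 207 to 525 with 1 array left out. Of other complement genes, 4 were called higher with array weights and 2 with the probe set of smallest p, and 1 to 2 with 1 array left out, while 27 read above 0 with no filter, when more genes were tested. C1ra passed with array weights (adjusted p = 0.0139) and without wild-type replicate 3 (0.0425), Serping1 with array weights (0.0437) and without apoE-/- replicate 1 (0.025), and C1qc with array weights (0.0214) and without apoE-/- replicate 4 (0.0375) or wild-type replicate 1 (0.0189). Causes were not tested. The labels do not say whether replicate numbers pair the samples, and the main fit did not treat them as pairs. Deviations of same-numbered arrays correlated at 0.16, -0.015, 0.031 and 0.008, and 2 of 9 arrays correlated best with their own number. Such values cannot tell whether same-numbered samples shared a handling step. With the replicate block, which drops wild-type replicate 5, 180 probe sets were higher and 421 lower, 2 other complement genes were called higher (C1qa and C1ra, the latter at adjusted p = 0.0346) and 0 of the tested alternative pathway and regulator probe sets were called. Few or no present calls limit Cfb, Masp1 and Cd46, for which a difference was not detectable here rather than shown to be absent.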
